A study of Oryza sativa Japonica Group with 3 samples.

Results

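A set of 10 genes for nitrogen uptake and assimilation was followed in RNA of rice root tips, both in polyadenylated RNA and in RNA of isolated nuclei. The genes were chosen by name, with earlier results of these data known, and found by identifier: the ammonium transporter genes AMT1;1, AMT1;2 and AMT1;3, the nitrate transporter genes NRT2.1, NRT2.2, NRT2.3 and NRT1.1B, the transport partner gene NAR2.1, and the assimilation genes GS1;2 and NADH-GOGAT1. Of the 10 genes, 9 were found among the 35664 genes of the table. NADH-GOGAT1 (OS01G0681900) was not analysed here. The table gives the identifier used for NRT1.1B (OS10G0554200) no symbol and describes it as a TGF-beta receptor family protein, so that name comes from the gene list and not from the deposited annotation.

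The series held 4 libraries of each pool, and all p-values below assume that these are biological replicates, as the series states. All libraries came from 1 cm root tips of 7-day-old Nipponbare seedlings on agar with Murashige and Skoog (MS) salts and 1% sucrose, under 16 h of light at 28 °C and 8 h of dark at 25 °C. Poly(A) RNA was captured with biotinylated oligo(dT) from the line p35S:HF-FLAG-OsRPL18, which carries a tagged ribosomal protein, grown on MS of strength 1. Nuclear RNA came from the line p35S:OsNTF2, whose nuclei were passed through a 30 µm filter and captured on streptavidin beads, grown on MS of strength 0.5 per its label, whereas the design text names only one strength. In both lines the transgene is driven by the 35S promoter. RNA pool, line, RNA selection and medium strength changed together and cannot be told apart. MS salts supply both nitrate and ammonium. In whole root tips, a difference in RNA per cell and a difference in the number of cells that express a gene cannot be told apart either. Nuclei of the shoot base were not analysed here.

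Plant roots take up ammonium through AMT proteins and nitrate through transporters of the NRT1 and NRT2 families. Rice NRT2.1, NRT2.2 and one product of NRT2.3 need the small partner protein NAR2.1 to carry nitrate at low concentrations. Nitrate is reduced to nitrite and then to ammonium, and glutamine synthetase and glutamate synthase then pass the ammonium into glutamine and glutamate. A poly(A) pool is mostly mature mRNA of the cytoplasm, whereas nuclear RNA also holds transcripts that have not left the nucleus.

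Depth ranged from 19411241 to 29943282 gene reads per poly(A) library and from 1072529 to 2287825 per nuclear library, and was 17.5 times higher on average in the former. Levels are given in RPKM, a read count divided by gene length and by library depth. For a 1 kb gene, a single read equalled 0.0333 to 0.0514 RPKM at the depths of the poly(A) pool but 0.436 to 0.93 RPKM at those of the nuclear pool, so low nuclear levels were far less precise. Pearson's r of log2 values was 0.991 to 0.995 between poly(A) libraries and 0.854 to 0.891 between nuclear libraries. All 6 root marker genes were above 1 RPKM in both pools. Of 18 leaf photosynthesis genes, 9 were above 1 RPKM in poly(A) RNA and 8 in nuclear RNA. Their summed level was 17.5 to 29.9 RPKM per poly(A) library and 39.2 to 63.8 RPKM per nuclear library, against 1996 to 2337 and 798 to 1253 RPKM for the root genes. Most of the root sum came from RCC3, at 1639.8 to 1917 RPKM in poly(A) and 521 to 853 RPKM in nuclear libraries. The lowest root gene in poly(A) RNA, SCR1, was at 2.43 to 3.05 RPKM there. The part of the leaf signal in the results below was not tested.

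The comparison of the pools asks which of these transcripts were over- or under-represented in nuclei relative to the poly(A) mRNA of the cell. Of the named genes, 3 rose in nuclear RNA, namely AMT1;1, NRT2.3 and NRT1.1B, each about 2-fold. GS1;2 fell 6.01-fold and NAR2.1 fell 1.83-fold. AMT1;2 did not pass the test, and AMT1;3, NRT2.1 and NRT2.2 were too low to be tested. Calls were made with limma on log2(RPKM + 1) at a Benjamini-Hochberg adjusted p under 0.05, over all 26928 genes with a mean of at least 1 RPKM in either pool. On that scale the folds of low genes are understated. Thus 3 of the 6 tested genes were higher and 2 lower, where 33.1% of all tested genes were higher and 30.0% lower. Of these 5 calls, that of NRT2.3 passed the filter only through its nuclear level and that of NAR2.1 only through its poly(A) level. The filter favours both calls in the direction seen. The pools did not overlap for 5 of the 6, against 61.1% of all tested genes, so being called was common in this comparison. The median difference of the 6 genes was 0.64 on the log2 scale and that of all tested genes 0.08.

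**Figure D1:**
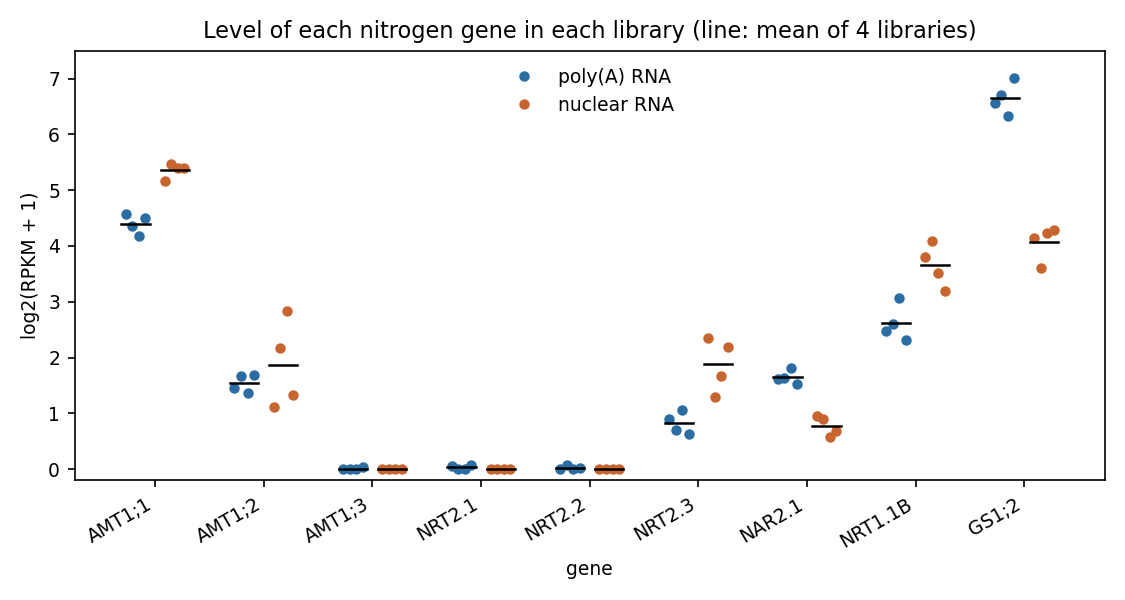
Level of each of the 9 genes found, as log2(RPKM + 1) on the vertical axis, with 1 point per library (4 poly(A), 4 nuclear) and a line at the mean of the pool. AMT1;1, NRT2.3 and NRT1.1B lie higher in all nuclear libraries than in any poly(A) library, NAR2.1 and GS1;2 lie lower, AMT1;2 overlaps, and AMT1;3, NRT2.1 and NRT2.2 lie at or near 0.

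Among the ammonium transporters, AMT1;1 (OS04G0509600), a plasma membrane carrier of the high-affinity AMT1 type, was the most abundant. It was measured at 22.9, 19.5, 17.0 and 21.6 RPKM in poly(A) replicates 1 to 4 and at 34.7, 43.1, 41.3 and 41.4 RPKM in nuclear replicates 1 to 4. Every nuclear library was above every poly(A) library. The mean rose from 20.2 ± 2.58 to 40.1 ± 3.74 RPKM (SD, n = 4 libraries each), a log2 difference of 0.96 ± 0.14 (SE) or 1.94-fold (limma, adjusted p = 0.000434). These values rested on 4442 poly(A) and 504 nuclear reads, and the ratio of the pooled reads, scaled by depth, was 1.99 with an exact 95% interval of 1.81 to 2.18. Intervals of this kind cover counting error only.

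AMT1;2 (OS02G0620600), a second AMT1 carrier, was far less abundant. It was measured at 1.74, 2.19, 1.58 and 2.21 RPKM in the poly(A) libraries and at 1.15, 3.53, 6.16 and 1.51 RPKM in the nuclear libraries. Nuclear replicates 2 and 3 lay above all poly(A) libraries and nuclear replicates 1 and 4 below all of them. The means were 1.93 ± 0.319 and 3.08 ± 2.3 RPKM and the log2 difference 0.32 ± 0.36 (limma, adjusted p = 0.465). Without nuclear replicate 3 the difference was -0.01 (adjusted p = 0.975), so its sign depended on 1 library, which held 15 reads of the gene. Nuclear replicates 1 and 4 held 3 reads each. Pooled over libraries, 378 poly(A) and 36 nuclear reads gave a depth-scaled ratio of 1.67 (exact 95% interval 1.15 to 2.35), which leaves out the spread between libraries.

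The remaining AMT1 gene, AMT1;3 (OS02G0620500), was barely measured. A single read was found in all 4 poly(A) libraries, giving 0.0232 RPKM in replicate 4 and 0 in the others, and no read in any nuclear library. A count of 3 reads over the nuclear libraries would correspond to 0.329 RPKM, and at the poly(A) level 0.0570 nuclear reads were expected. A fall was therefore not detectable at this depth, and a rise only if it was very large. The upper exact 95% limit of the nuclear to poly(A) ratio of pooled reads was 684. In the RefSeq annotation of another rice assembly, AMT1;2 and AMT1;3 are adjacent genes with 0 genes between them, and the table describes AMT1;3 as similar to Amt1;2. Reads that fit both copies could have been assigned to either or dropped, since the counting rule is not given in the sources used here.

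The high-affinity nitrate transporters split by level. NRT2.1 (OS02G0112100) was measured at 0.0347, 0, 0 and 0.0543 RPKM in the poly(A) libraries and at 0 in all nuclear libraries. NRT2.2 (OS02G0112600) was measured at 0, 0.0574, 0 and 0.0194 RPKM and likewise at 0 in nuclear RNA. Both were thus near 0 in both pools. These levels stood on 5 reads for NRT2.1 and 3 reads for NRT2.2 in the poly(A) pool. At the same levels 0.285 and 0.171 nuclear reads were expected, and 3 nuclear reads would correspond to 0.256 and 0.275 RPKM. A fall could therefore not have been seen, and a rise only if it was large. The upper exact 95% limit of the nuclear to poly(A) ratio of pooled reads was 19.1 for NRT2.1 and 42.4 for NRT2.2. The 2 genes lie next to each other in the RefSeq annotation, the table gives both the description "Similar to BCH2", and near-identical copies share reads, so these few reads cannot be placed on one copy with certainty.

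NRT2.3 (OS01G0704100), annotated for long-distance nitrate transport, had the most reads of the 3 named NRT2 genes. It was measured at 0.862, 0.616, 1.09 and 0.549 RPKM in the poly(A) libraries and at 4.07, 1.46, 2.19 and 3.56 RPKM in the nuclear libraries. All nuclear libraries were above all poly(A) libraries. The mean rose from 0.778 ± 0.245 to 2.82 ± 1.21 RPKM, a log2 difference of 1.06 ± 0.24 or 2.08-fold (limma, adjusted p = 0.00494). The gene passed the filter only through its nuclear level, which favours a call in that direction. It had 177 poly(A) and 33 nuclear reads, and the depth-scaled ratio of pooled reads was 3.27 (exact 95% interval 2.18 to 4.76). With voom on recovered reads the difference was 1.77 (adjusted p = 0.00100). The table annotates 2 transcripts of NRT2.3, which one value per gene cannot separate.

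NAR2.1 (OS02G0595900), which encodes the partner protein of NRT2 carriers, moved the other way. It was measured at 2.05, 2.12, 2.53 and 1.88 RPKM in the poly(A) libraries and at 0.926, 0.855, 0.497 and 0.608 RPKM in the nuclear libraries. All nuclear libraries were below all poly(A) libraries. The mean fell from 2.14 ± 0.275 to 0.721 ± 0.202 RPKM, a log2 difference of -0.87 ± 0.14 or 1.83-fold lower (limma, adjusted p = 0.000625). The gene passed the filter only through its poly(A) level, which favours a call in that direction. The nuclear level rested on 7 reads in all, and poly(A) over nuclear pooled reads gave a ratio of 2.86 (exact 95% interval 1.37 to 7.16). In a single random thinning of the poly(A) reads to the nuclear depth, the difference was -0.44 (limma, adjusted p = 0.301) and the call was lost. How far this varies between draws was not tested. A pseudocount of 0.1 gave -1.48 (limma, adjusted p = 0.000502).

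NRT1.1B (OS10G0554200) is a nitrate transporter and sensor of the NRT1/PTR family in rice. The levels under its identifier were 4.55, 5.07, 7.36 and 3.98 RPKM in the poly(A) libraries and 13.0, 16.0, 10.5 and 8.16 RPKM in the nuclear libraries. The lowest nuclear library was above the highest poly(A) library. The mean rose from 5.24 ± 1.48 to 11.9 ± 3.38 RPKM, a log2 difference of 1.04 ± 0.24 or 2.06-fold (limma, adjusted p = 0.00463). It had 1342 poly(A) and 186 nuclear reads, with a depth-scaled ratio of 2.43 (exact 95% interval 2.07 to 2.84).

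GS1;2 (OS03G0223400) encodes a cytosolic glutamine synthetase that assimilates ammonium in roots, and it had the highest poly(A) level and the largest change of the 6 tested genes. It was measured at 94.1, 103, 79.3 and 128 RPKM in the poly(A) libraries and at 16.6, 11.1, 17.9 and 18.6 RPKM in the nuclear libraries. The lowest poly(A) library was far above the highest nuclear one. The mean fell from 101 ± 20.5 to 16.1 ± 3.38 RPKM, a log2 difference of -2.59 ± 0.21 or 6.01-fold lower (limma, adjusted p = 1.28e-05). Of all tested genes, 3.45% had a lower difference. Pooled over libraries, 15636 poly(A) reads stood against 134 nuclear reads, a depth-scaled poly(A) to nuclear ratio of 6.65 (exact 95% interval 5.61 to 7.95).

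**Figure D2:**
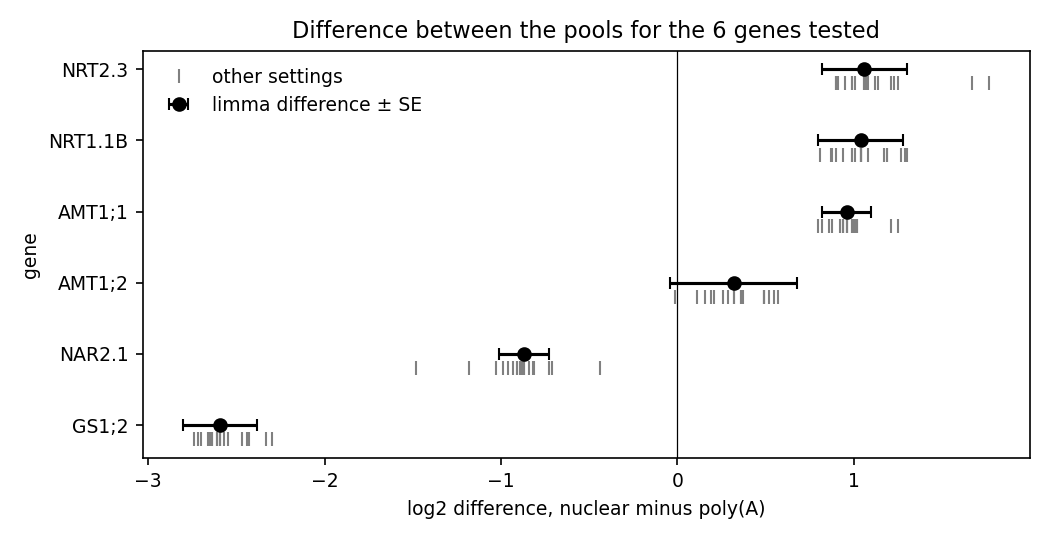
Log2 difference of nuclear minus poly(A) RNA (horizontal axis) for the 6 tested genes, as the limma estimate ± SE (black) and under the other processing settings (grey ticks). NRT2.3, NRT1.1B and AMT1;1 lie to the right of 0 and NAR2.1 and GS1;2 to the left under each of these settings, whereas the values of AMT1;2 reach from -0.01 to 0.57.

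Gene length moved with the difference between the pools over all tested genes. The median log2 difference was -0.28 among the shortest genes when the tested genes were divided by length into 3 equal groups (median length 785 nt), 0.03 in the middle group and 0.34 among the longest genes (median length 2554 nt). The 3 named genes that rose were 2043 nt (AMT1;1), 2087 nt (NRT2.3) and 2393 nt (NRT1.1B) long, and the 2 that fell were 1530 nt (NAR2.1) and 1448 nt (GS1;2). With the length trend taken off each library, the differences were 0.82, 0.91 and 0.81 for the former and -0.96 and -2.64 for the latter. All 5 still passed the test.

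The order of the genes by level, in RPKM, which is per length, differed between the pools. In poly(A) RNA, GS1;2 was followed by AMT1;1, with a ratio of means of 5.00, and then by NRT1.1B at a further ratio of 3.86. NAR2.1 and AMT1;2 came next and overlapped, at a ratio of 1.11. NRT2.3 stood below them, and NRT2.1, NRT2.2 and AMT1;3 overlapped one another near 0. In nuclear RNA, AMT1;1 was first, 2.50 times above GS1;2, whose libraries overlapped those of NRT1.1B. AMT1;2 and NRT2.3 overlapped as well, at a ratio of 1.09, and NAR2.1 was the lowest of the genes with nuclear reads. NRT2.3 therefore stood below NAR2.1 in every poly(A) library and above it in every nuclear library.

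Pairs of named genes with related roles were compared within each library by an exact two-sided permutation test of 4 libraries against 4, whose smallest p is 0.0286. Of 9 pairs set out, 8 could be run, and p-values were adjusted over these 8. The log2 level of NRT2.3 relative to NAR2.1 lay between -0.95 and -0.71 in poly(A) RNA and between 0.41 and 1.51 in nuclear RNA. This shift of 1.93 ± 0.25 was seen in 4 of 4 nuclear libraries (exact p = 0.0286, adjusted p = 0.0457). NRT2.3 passed the filter only in nuclear RNA and NAR2.1 only in poly(A) RNA, so the filter favours a shift in this direction. AMT1;1 relative to AMT1;2 stood 0.64 ± 0.37 higher in nuclear RNA, with overlapping libraries (exact p = 0.200, adjusted p = 0.267). Without nuclear replicate 3 that difference was 0.95 (exact adjusted p = 0.0457). The other 6 pairs had a member near 0 and so carried little more than the difference of the partner. Of them, AMT1;1 against AMT1;3, NRT2.1 against NAR2.1, NRT2.2 against NAR2.1 and NRT2.1 against NRT1.1B had an exact adjusted p of 0.0457, which made 5 of 8 pairs in all. None of the 8 pairs kept an adjusted p under 0.05 with quantile normalization, without poly(A) replicate 1 or 4, or without nuclear replicate 1 or 2, where the same 5 pairs had adjusted p-values of at least 0.0571.

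The other genes of the pathway were taken from the table's annotation words, 112 genes in all, of which 91 were tested. By limma at an adjusted p under 0.05, 26 rose and 23 fell in nuclear RNA, and their median log2 difference was 0.00. Those counts correspond to smaller shares than the 33.1% and 30.0% of all tested genes. Transporter and enzyme genes are given apart, with no test between them. The words also brought OS03G0431200 and OS07G0585600, annotated as similar to N-acetyl-glutamate synthase, into the glutamate synthase class, and neither was called. Some enzyme genes carry only a domain annotation, among them OS02G0115950 and OS03G0821150 of the glutamate dehydrogenase class, which both fell. Of 45 tested transporter genes, 18 rose and 4 fell, with a median of 0.55, whereas of 41 tested enzyme genes 7 rose and 18 fell, with a median of -0.40. Some of these calls passed the filter only through the pool where the gene was higher, which favours a call in that direction. They were 4 of the NRT1/PTR genes that rose, 1 NRT1/PTR gene that fell, and 1 glutamate dehydrogenase gene that rose. The number of enzyme genes that rose was 11 when RPKM were rescaled to an equal sum without the 100 highest genes, where 39.2% of all tested genes rose.

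**Figure D3:**
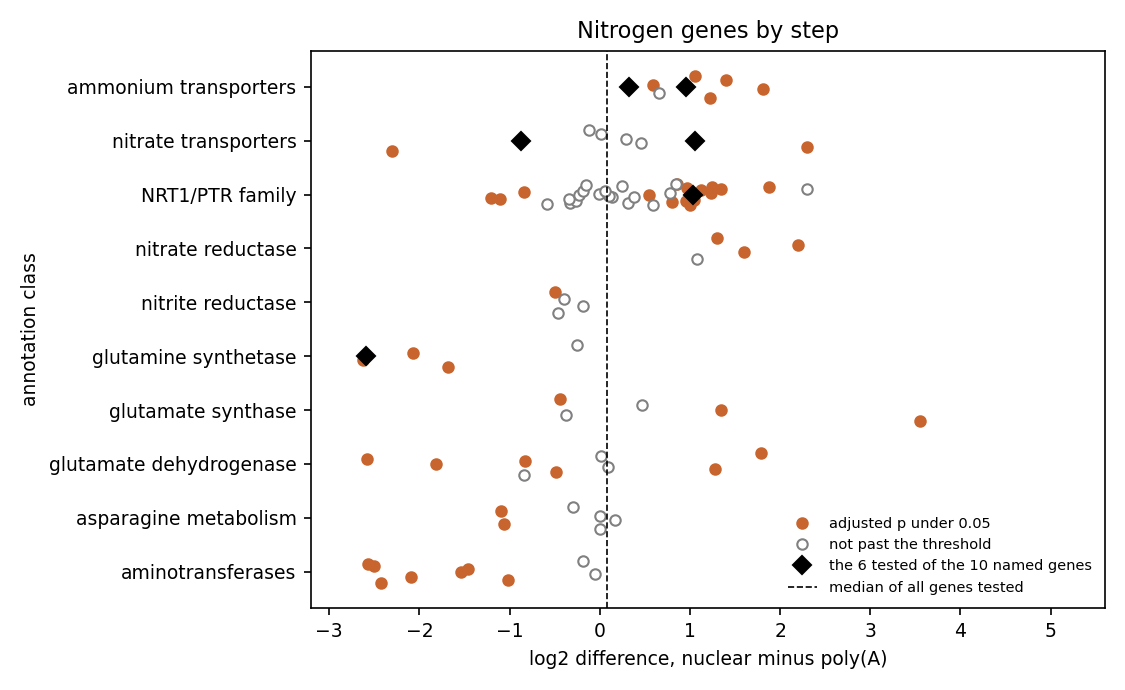
Log2 difference of nuclear minus poly(A) RNA (horizontal axis) for the tested nitrogen genes by annotation class (vertical axis), filled where the adjusted p was under 0.05 and open otherwise, with black diamonds for the 6 named genes and a dashed line at the median of all tested genes, 0.08. Ammonium transporters and nitrate reductases lie to the right, glutamine synthetases and aminotransferases to the left.

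Of the 6 other ammonium transporter genes tested, 5 rose, by 0.59 to 1.81 on the log2 scale, and none fell, where 33.1% of all tested genes rose and 30.0% fell. AMT3;2 (OS03G0838400) rose from 10.3 ± 1.08 to 29.3 ± 8.37 RPKM, a log2 difference of 1.40 ± 0.20 (limma, adjusted p = 0.000368). AMT3;1 (OS01G0870300) carries that symbol, but its deposited description is that of a hypothetical conserved gene. It was measured at 1.69, 1.39, 1.65 and 1.33 RPKM in poly(A) and at 5.77, 7.91, 8.32 and 9.74 RPKM in nuclear RNA, a rise of 1.81 ± 0.16 (limma, adjusted p = 2.41e-05). At 4297 nt it is a long gene, and its difference was 1.05 with the length trend taken off (adjusted p = 0.000678). AMT2;1 and AMT2;2 rose by 1.06 and 1.22, and AMT3;3 by 0.59. The call of AMT3;3 was lost under 6 of 18 alternatives, among them leaving out poly(A) replicate 3 (0.52, limma, adjusted p = 0.0565). AMT2;3 stood at 0.66 (limma, adjusted p = 0.115). It passed the test without nuclear replicate 1 (0.89, adjusted p = 0.0396) and with voom (1.21, adjusted p = 0.0223), but was at 0.32 without nuclear replicate 2. AMT4;1 was too low to be tested.

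Summed over the 10 ammonium transporter genes, the level was 49.8 ± 2.43 RPKM in the poly(A) pool and 117 ± 3.82 RPKM in the nuclear pool. AMT1;1 made up 40.5% ± 3.53 (SD, n = 4) of that sum in poly(A) and 34.2% ± 3.86 in nuclear libraries, and the ranges of 36.2 to 44.7% and 28.8 to 37.4% overlapped. AMT1;1 was thus the leading ammonium transporter in all poly(A) libraries, while in nuclear replicate 1 AMT3;2 stood above it (40.8 against 34.7 RPKM). AMT3;1 held 2.55 to 3.51% of the poly(A) sum and 4.79 to 8.04% of the nuclear sum, without overlap. AMT1;2 held 3.87% ± 0.570 and 2.67% ± 2.06. These shares were not tested.

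**Figure D4:**
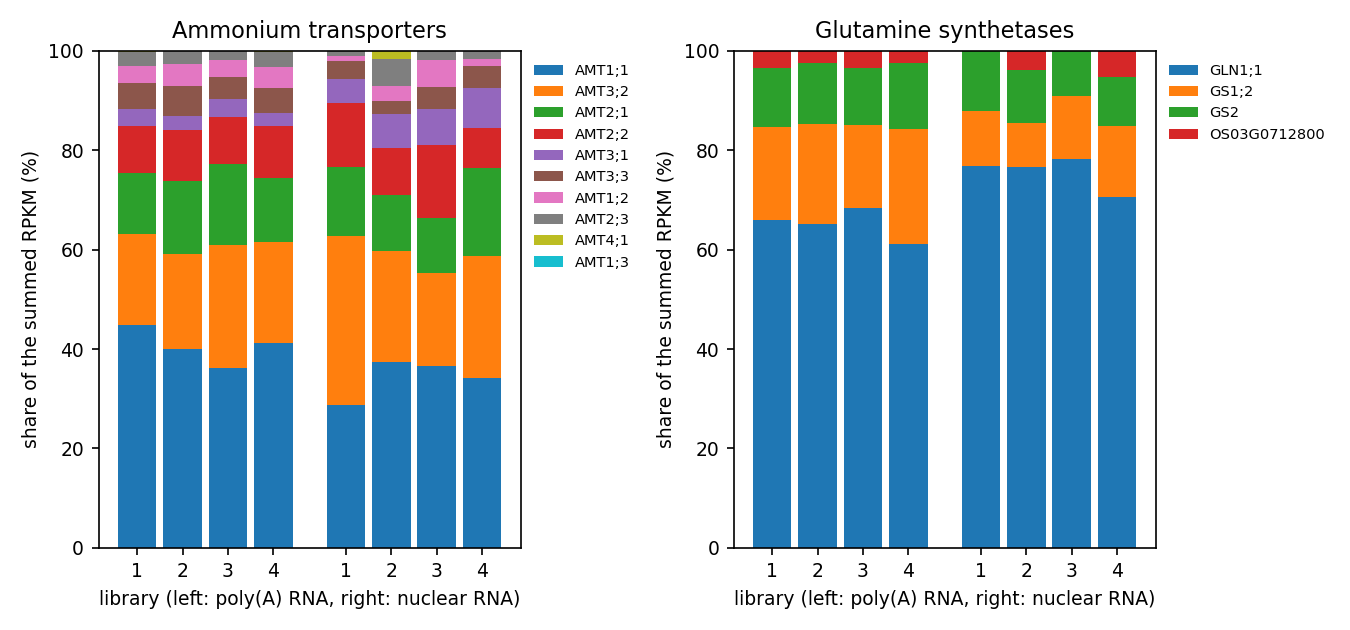
Share of each gene (percent, vertical axis) in the summed RPKM of 10 ammonium transporter genes (left panel) and 4 glutamine synthetase genes (right panel), with 1 bar per library, poly(A) at left and nuclear at right. AMT1;1 holds 28.8 to 44.7% of the first family, and GS1;2 holds 8.77 to 14.3% of the second in nuclear libraries, below its 16.8 to 23.1% in the poly(A) pool.

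Among 6 other nitrate transporter genes tested, 1 rose and 1 fell, where 33.1% of all tested genes rose and 30.0% fell. NRT1 (OS03G0235900), annotated as similar to a low-affinity transporter, fell from 61.5 ± 1.47 to 12.0 ± 2.89 RPKM, or 4.92-fold (limma, adjusted p = 1.33e-05). It was the most abundant nitrate transporter gene of the poly(A) pool. OS06G0581000, annotated as similar to NTL1, rose from 2.42 ± 0.357 to 15.9 ± 2.70 RPKM, or 4.93-fold (limma, adjusted p = 5.71e-06). NRT2.4 had 0 poly(A) and 2 nuclear reads and was not tested. NAR2.2, the second NAR2 gene, was measured at 0.801 ± 0.326 and 0.463 ± 0.535 RPKM, below the filter in both pools. The broader NRT1/PTR family, which includes peptide transporters and to which NRT1.1B belongs, had 12 of 33 tested genes higher and 3 lower, against 33.1% and 30.0% of all tested genes. Of the 12, 4 passed the filter only through their nuclear level, as 1 of the 3 did through its poly(A) level. PTR3 (OS10G0470700) rose the most of these, from 4.30 ± 0.390 to 19.0 ± 4.78 RPKM. The family's most abundant poly(A) gene, OS05G0338900, rose from 43.8 ± 4.13 to 65.0 ± 11.2 RPKM, by 0.55 (limma, adjusted p = 0.0167). Its call was lost under 4 of 19 alternatives, among them leaving out poly(A) replicate 4 (limma, adjusted p = 0.0543).

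Nitrate reductase catalyses the first step of nitrate assimilation, and 3 of its 4 tested genes rose while none fell. Among all tested genes, 33.1% rose and 30.0% fell. OS08G0468100 was measured at 9.90, 10.9, 8.26 and 11.2 RPKM in poly(A) and at 53.8, 45.2, 53.3 and 45.8 RPKM in nuclear RNA, a rise of 4.58-fold (limma, adjusted p = 4.20e-06). OS02G0770800 rose from 16.6 ± 2.70 to 52.2 ± 6.44 RPKM and OS08G0468700 from 7.85 ± 1.42 to 20.9 ± 3.99 RPKM. The fourth, OS01G0693700, rested on 2 poly(A) and 5 nuclear reads, at means of 0.0431 and 1.96 RPKM. It passed the filter only through its nuclear level, which favours a call in that direction. It was not called in the main test, but was called higher when nuclear replicate 1 or 3 was left out (limma, adjusted p = 0.0492 and 0.0483) and with voom. Reads shared by near-identical nitrate reductase copies cannot be told apart here. Of 4 genes annotated as nitrite reductase, the next enzyme, 1 fell and none rose, against the same shares of all tested genes. This class includes OS01G0183100, which carries only a domain annotation. The most abundant, PSR1 (OS01G0357100), stood at 299 ± 40.3 and 261 ± 18.5 RPKM, a difference of -0.19 ± 0.14 (limma, adjusted p = 0.260). Its call turned with the processing: higher with quantile normalization (0.67, adjusted p = 0.00236) and lower with the length trend taken off (-0.48, adjusted p = 0.0217). OS02G0765900 fell from 76.8 ± 9.62 to 54.1 ± 7.55 RPKM, by 0.50 on the log2 scale (limma, adjusted p = 0.0213), a call lost when RPKM were rescaled to an equal sum (-0.24) and without poly(A) replicate 2 or 4 (adjusted p = 0.0597 and 0.0675).

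Beside GS1;2, 3 of 4 further genes annotated as glutamine synthetase fell, where 30.0% of all tested genes did. The cytosolic GLN1;1 (OS02G0735200) was measured at 334, 335, 323 and 340.0 RPKM in poly(A) and at 114, 97.5, 109.7 and 91.9 RPKM in nuclear RNA, a difference of -1.68 ± 0.12 (limma, adjusted p = 7.58e-06) that was -1.0 with quantile normalization. The chloroplast isozyme GS2 (OS04G0659100) fell from 62.7 ± 8.08 to 14.2 ± 2.46 RPKM, by 2.07 on the log2 scale (limma, adjusted p = 1.01e-05). OS03G0712800, annotated as a root isozyme, fell from 15.2 ± 2.52 to 2.95 ± 3.49 RPKM (limma, adjusted p = 0.0101), by 2.62 on the log2 scale or by 4.30 with a pseudocount of 0.1, and was at 0 in nuclear replicates 1 and 3. OS10G0456500, annotated only as similar to a glutamine synthetase fragment, stood at 23.7 ± 0.525 and 19.9 ± 2.74 RPKM, a difference of -0.25 (limma, adjusted p = 0.138). It was called lower with the length trend taken off (-0.70, adjusted p = 0.00144) and with median centring (-0.41, adjusted p = 0.0240). Over the 4 genes with isozyme annotation the summed level was 512 ± 34.1 RPKM in poly(A) and 137 ± 9.76 RPKM in nuclear RNA. GS1;2 held 19.6% ± 2.66 of the poly(A) sum and 11.7% ± 2.36 of the nuclear sum, without overlap, whereas GLN1;1 held 65.2% ± 2.96 and 75.6% ± 3.40. These shares were not tested.

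Glutamate synthase genes differed in direction. The table holds OS01G0682001, annotated as similar to NADH-dependent glutamate synthase, which was at 28.6, 29.9, 26.6 and 20.5 RPKM in poly(A) and at 321, 285, 349 and 320.3 RPKM in nuclear RNA. It rose by 3.55 ± 0.15 on the log2 scale, or 11.7-fold (limma, adjusted p = 8.02e-07), a difference above that of 99.3% of all tested genes. At 1948 nt its counted length is much shorter than the 5403 nt of the ferredoxin-dependent gene, and its identifier is not the one named for NADH-GOGAT1. The table pairs it with the locus LOC_Os01g48960. Whether it is part of the same gene as NADH-GOGAT1 was not settled from the files, so its rise is not given as a value of that gene. The ferredoxin-dependent gene (OS07G0658400) fell from 45.4 ± 3.16 to 33.3 ± 2.32 RPKM, by 0.44 on the log2 scale (limma, adjusted p = 0.0127), and this call was lost when RPKM were rescaled to an equal sum (-0.18, limma, adjusted p = 0.227), while the difference was -1.43 with the length trend taken off. OS04G0490000, another NADH-type annotation, rose from 3.31 ± 0.244 to 10.5 ± 3.59 RPKM, and GLT2 (OS05G0555600) was too low to be tested.

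Aminotransferases move amino groups from glutamate onward. Of 9 tested aspartate and alanine aminotransferase genes, 7 fell and none rose, where 30.0% of all tested genes fell and 33.1% rose. The log2 differences of the 7 were -2.57 to -1.02. ALAAT (OS10G0390500), for alanine aminotransferase, fell from 96.8 ± 3.11 to 15.6 ± 2.07 RPKM (limma, adjusted p = 1.60e-06), and the cytoplasmic aspartate aminotransferase gene OS01G0760600 fell from 127 ± 3.63 to 23.4 ± 5.18 RPKM. Of 6 tested genes of asparagine metabolism 2 fell, a share close to the 30.0% of all tested genes that fell. ASN1 fell from 88.4 ± 10.3 to 42.5 ± 9.05 RPKM and ASN from 34.7 ± 2.02 to 15.9 ± 2.39 RPKM. Glutamate dehydrogenase can release ammonium from glutamate. Of 11 genes annotated as this enzyme, several by a domain alone, 9 were tested. Of these 4 fell and 2 rose, where 30.0% and 33.1% of all tested genes did, and 1 of the 2, GDH3, passed the filter only through its nuclear level. GDH2 (OS04G0543900) fell from 15.1 ± 2.67 to 1.75 ± 0.759 RPKM (limma, adjusted p = 1.84e-05). OS02G0115950, the most abundant gene of this class, carries only a domain annotation and fell from 303 ± 22.4 to 218 ± 39.8 RPKM, by 0.49 (limma, adjusted p = 0.0238), with the difference at 0.37 under quantile normalization. The call of OS02G0115950 was also lost without poly(A) replicate 1, 2 or 3.

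Of the remaining classes, the urease accessory gene OS05G0565200 fell by 2.39 on the log2 scale (limma, adjusted p = 0.00303). The PII gene OS05G0133100, for a nitrogen-sensing protein of plastids, stood at 41.8 ± 1.24 and 25.5 ± 14.6 RPKM (limma, adjusted p = 0.105). Without nuclear replicate 3 its difference of -0.92 became -1.23 and passed the test (limma, adjusted p = 0.0343), and without nuclear replicate 4 it became -0.43 (adjusted p = 0.0893). OS11G0264300, of the RWP-RK family of nitrate-responsive regulators, rose from 8.98 ± 0.683 to 13.3 ± 0.839 RPKM, by 0.52 (limma, adjusted p = 0.00471), but was called lower, at -0.33, once the length trend was taken off (adjusted p = 0.0283).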

How the data were processed

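The deposited table holds RPKM per gene, computed by the authors. CASAVA 1.8, FastQC, TopHat2 2.1.1 and IRGSP-1.0 are named per the submitters' processing notes; for the read counter, strand setting and gene models, the step is not given in the sources used here, and reads of overlapping or antisense genes cannot be told apart. Its 35694 lines give 35664 genes, and 29 repeated genes had equal values and were counted once. Values are whole multiples of 1 read: in all 32101 genes above 0 in at least 2 libraries, reads came out whole within 0.0001, which gave depths and counted lengths. The test was limma 3.58.1 (R 4.3.3), two-sided, with a pseudocount of 1; Python 3.11.15 and scipy 1.17.1 did the rest. The read recovery and the limma fit were tested on simulated data. Pathway genes were found by annotation words, leaving out 14 oligopeptide transporter (OPT) family genes. Named pathway genes were, per class, the highest in poly(A) RNA and the largest called change, plus relatives of the named genes (AMT2 and AMT3, NRT2.4, glutamine and glutamate synthases); the other nitrate reductase genes, AMT4;1, NAR2.2 and OS04G0490000 were added after their values were seen. The genes and lists were chosen with earlier results of these data known. Alternatives covered pseudocount, filter, scaling, gene length, depth, replicate block and leaving out each library.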

Additional observations from a re-analysis of the deposited data

Results flagged for a closer look

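Of 15 groups of 4 libraries checked, 1 held a library that stood apart by Dixon's criterion. AMT1;3 was at 0.0232 RPKM in poly(A) replicate 4 and at 0 in the other 3 poly(A) libraries. That value is 1 read. A group with 1 read in 1 of 4 libraries always meets the criterion. The usual chance rate of about 1 group in 20 therefore does not apply to it.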

How the results depend on the processing

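The number of named genes lower in nuclear RNA was 2, but 1 with a filter at a mean of 5 RPKM, which tested 3 of the genes and left NAR2.1 out. It was also 1 with poly(A) reads thinned to the nuclear depth in a single random draw. Under these settings 36.0% and 26.7% of all tested genes were lower. The number higher was 3, and 2 to 3 over 19 alternatives. It was 2 with the filter at 5 RPKM, where 37.7% of all tested genes were higher. Log2 differences ranged from 0.80 to 1.25 (AMT1;1), 0.90 to 1.77 (NRT2.3), 0.81 to 1.30 (NRT1.1B), -1.48 to -0.44 (NAR2.1) and -2.74 to -2.30 (GS1;2). AMT1;2 ranged from -0.01 (without nuclear replicate 3) to 0.57 (without nuclear replicate 1). The other pathway genes gave 22 to 34 higher and 19 to 29 lower. The 34 came after rescaling to an equal sum without the 100 highest genes, where enzyme genes that rose numbered 11. Under that setting 39.2% of all tested genes were higher and 23.5% lower, and 19 pathway genes were lower. The 22 came with the filter at 5 RPKM, where 37.7% of all tested genes were higher. The 29 came with the length trend taken off, where 31.7% of all tested genes were lower. PSR1 turned to 0.07 after rescaling to an equal sum, to 0.11 without the 100 highest genes and to 0.67 with quantile normalization, where it was called higher. OS10G0456500 turned to 0.04 without the 100 highest genes, OS02G0115950 to 0.37 with quantile normalization, and OS11G0264300 to -0.33 with the length trend taken off, where it was called lower. The cause was not tested. The count of 5 pairs became 0 with quantile normalization and 0 to 5 when 1 library was left out. The median of all tested genes was 0.08, 0.29 with equal sums, 0.32 with equal sums that leave out the 100 highest genes, and -0.08 with median centring. Higher genes were 52.5% of all called genes, and 62.6% after rescaling without the 100 highest genes.

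Same-numbered libraries did not deviate together (r of -0.048 to 0.009), so no pairing by number was seen. At the low depth of the nuclear libraries this check cannot exclude one. With the replicate block, all genes gave 8391 higher and 7628 lower calls, and 0 pairs passed, since the smallest p is then 0.125. A test with voom on recovered reads was added after the data were seen and gave 3 higher and 2 lower named genes. With voom, 38.6% of all tested genes were higher and 30.5% lower. The planned edgeR and DESeq2 fits on recovered reads were not run, nor was the pair of GS1;2 and NADH-GOGAT1. Depth limits the low nuclear values: NAR2.1 rests on 7 nuclear reads, and AMT1;3, NRT2.1 and NRT2.2 on none.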
